A study of Homo sapiens with 6 samples.

Results

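Chromosome 1 held 7009 of the 59006 MYC peaks called in 3 libraries of ONS76 cells, and 3296 of the 27801 places that remained after peaks overlapping by at least 1 bp were merged across libraries. Its peaks were split by the position of the summit in hg19, below 100 Mb and at or above 100 Mb. The split was selected on the control background recovered at these same peaks, so the step in background described below is a description of what chose the members and carries no test. The side below 100 Mb held 1676 places, built from 1484, 1036 and 1070 peaks of replicates 1, 2 and 3. The side at or above 100 Mb held 1620 places, built from 1412, 995 and 1012 peaks. Places with summits on both sides numbered 0.

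The study asked which sites MYC occupies in ONS76 cells, an established line derived from a human medulloblastoma. All samples carried an engineered genotype with inducible SOX2 and were labelled by antibody, MYC (Y69) or Normal IgG, with 3 libraries of each, grown in DMEM with serum and cross-linked with 1% formaldehyde. No induction of SOX2 is named in the labels, and the IgG libraries were not analysed here. The sources used here do not say whether each replicate was grown as its own culture, so each SD is the spread between 3 libraries, which may be technical.

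MYC is a transcription factor of the basic helix-loop-helix leucine zipper class that binds DNA as a dimer with MAX, at E-box motifs and very often at active promoters. In chromatin immunoprecipitation followed by sequencing (ChIP-seq), a peak is called where fragments pile up above the number expected from a control library. That control number is a background measure, and it generally depends on how much DNA of a region the cells contain, on how easily its chromatin is sheared and recovered, and on how uniquely its reads can be placed. Chromosome 1 is the longest human chromosome, and its short and long arms are separated by a centromere and a large block of constitutive heterochromatin in which few reads can be placed.

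Read totals are absent from the lists, so depth was gauged by the genome-wide background level, which is the count expected at a summit if all fragments were laid evenly along the genome. For replicates 1, 2 and 3 it came to 7.79, 5.84 and 4.76 fragments, so replicate 1 was the deepest. The local background at a summit is reported here relative to that level of the same list, so that 1 means no more control signal than the genome-wide level. The control library behind each list held 1.45, 1.66 and 1.81 times as many fragments as the MYC library. The longest stretch of chromosome 1 without a peak in any list ran from 121289657 to 143467453 (22.2 Mb) and is called the gap. The peaks of the lower side spanned 99.2 Mb, and those of the upper side 127 Mb without the gap, of which 21.3 Mb lay before the gap and 106 Mb past it.

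The control background was higher on the upper side in each of the 3 replicates. The median relative background below 100 Mb was 1.21 in replicate 1, 1.07 in replicate 2 and 1.08 in replicate 3. At or above 100 Mb it was 1.47, 1.33 and 1.34. The lower side was thus close to the other chromosomes, whose medians were 1.15, 1.03 and 1.04, and the upper side stood above both in each list. The ratio of the upper to the lower median was 1.21, 1.24 and 1.24, averaging 1.23 ± 0.0174 (SD, n = 3). The middle 50% of the peaks did not overlap between the sides: the upper quartile of the lower side was 1.33, 1.14 and 1.16, and the lower quartile of the upper side was 1.36, 1.24 and 1.25.

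The numbers of control fragments give the same difference in another unit, since within a list they are proportional to the background. At peaks whose background was set by the widest window of 10000 bp, the median number of control fragments in that window was 517 in replicate 1, 452 in replicate 2 and 407.5 in replicate 3 on the lower side, against 625, 539 and 495 on the upper side. Restricted to these peaks, the ratio of relative background was 1.21, 1.19 and 1.21 (mean 1.205 ± 0.0115, SD, n = 3). Such peaks of the other chromosomes had median relative backgrounds of 1.21, 1.18 and 1.19. These lay above the lower side (1.15, 1.09 and 1.09) and below the upper side (1.39, 1.30 and 1.32) in each list. A background that also matched a whole number of fragments in a window of 1000 bp was assigned to that narrower window and left out here. Counted so, the 10000 bp window set the background of 43.0%, 44.7% and 46.9% of peaks on the lower side. On the upper side it was 41.9%, 67.4% and 61.9%, and these shares may be too low.

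**Figure D1:**
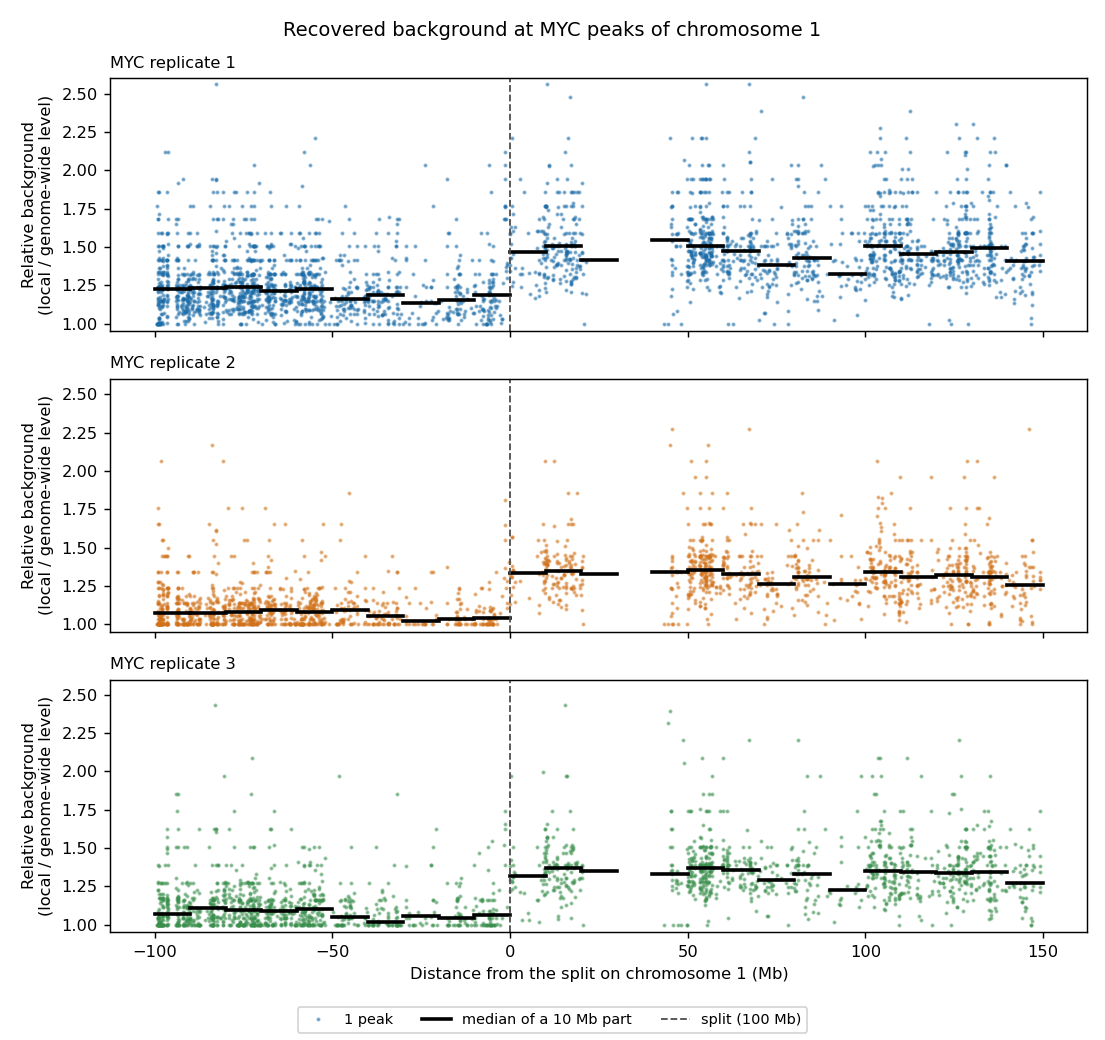
Relative background (local background over the genome-wide level, no unit) of each chromosome 1 peak against the distance of its summit from 100 Mb in Mb, with 1 panel per MYC replicate. Points are single peaks, black bars are medians of 10 Mb parts and the dashed line is the split; 14, 9 and 9 peaks above 2.6 lie off the axis. In each panel every bar right of the split lies above every bar left of it.

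Peaks whose background did not exceed the genome-wide level were nearly missing from the upper side. Over all chromosomes, the share at that level was 28.9%, 40.4% and 40% in replicates 1, 2 and 3. On the lower side the counts were 57 of 1484 peaks (3.84%), 262 of 1036 (25.3%) and 228 of 1070 (21.3%). On the upper side they were 12 of 1412 (0.850%), 17 of 995 (1.71%) and 14 of 1012 (1.38%). Both sides were below the genome-wide shares, the upper side by far the most. The difference, upper minus lower, was −2.99, −23.6 and −19.9 percentage points (mean −15.5 ± 11.0, SD, n = 3), and its size depended on the library, since replicate 1 had few such peaks on either side. Of the upper-side peaks at the genome-wide level, 3 of 12, 6 of 17 and 6 of 14 lay within 10 Mb past the gap, a stretch that held 7.72%, 8.64% and 8.60% of all upper-side peaks.

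The same measure can be given place by place. Of the 769 lower-side places found in all 3 replicates, 38 (4.94%) had a relative background of at least 1.2 in each list, against 559 of 736 (76.0%) on the upper side. The background exceeded the genome-wide level in each list at 62.0% of the former and 97.6% of the latter. At these shared places the medians were 1.23, 1.07 and 1.08 on the lower side and 1.49, 1.32 and 1.34 on the upper side. The cutoff of 1.2 lies between these medians in replicates 2 and 3, on the measure that chose the split. The contrast in counts is therefore a description of that choice. The same counts were not made for the other chromosomes, so no genome-wide share is given. Exceptions existed on both sides. On the upper side, the places from 143467454 to 143467881, the first past the gap, and from 224180128 to 224180663 were at the genome-wide level in all 3 lists, with fold enrichments of 7.97, 5.26 and 4.34 at the former and 5.46, 5.12 and 3.65 at the latter.

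The position of the step was then located in each list as the single cut of chromosome 1 that best separated low from high log background. The last summit before the cut was at 98097833 in replicate 1, at 97611073 in replicate 2 and at 97611077 in replicate 3. The first summit after it was at 98386654, 98386575 and 98386634, which is the same place in all 3 lists. Taken as exact, the 3 cuts put the step between 98097833 and 98386575, a stretch of 289 kb without a summit, whose lower bound rests on replicate 1 alone. The uncertainty of a cut was not estimated, so the step may lie outside this stretch. The round number of 100 Mb is 1613 kb past the first summit after the cut, and the background may have risen before that summit. The geometric means of the background on either side of this cut differed by a ratio of 1.21 in each of the replicates (mean 1.21 ± 0.0033, SD, n = 3). The cut accounted for 26.1%, 30.3% and 30.3% of the squared deviations of log background along the chromosome. The 3 positions lay within 0.243 Mb of each other.

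The cut was placed on these same values, so the places next to it are described without a test. The last place before it that all 3 lists shared, from 97610726 to 97611351, had relative backgrounds of 1.03, 1.18 and 1.04. A place from 98097680 to 98097976, found in replicate 1 alone, had 1.27. The first place after the interval, from 98386114 to 98387204, had 1.68, 1.30 and 1.52. The next place shared by all lists, from 98519352 to 98520164, had 2.03, 1.55 and 1.66. Places on both sides overlapped in background. The shared place from 99126849 to 99127889, past the interval, had only 1.39, 1.13 and 1.12, while before it the place from 94158779 to 94159077, found in replicate 1 alone, had 2.03. In the 5 Mb below the interval the medians were 1.16, 1.03 and 1.04, and 5 of 59, 15 of 39 and 15 of 42 peaks did not exceed the genome-wide level. In the 5 Mb above it the medians were 1.59, 1.31 and 1.34, and 0 of 34, 26 and 22 peaks were at that level.

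**Figure D2:**
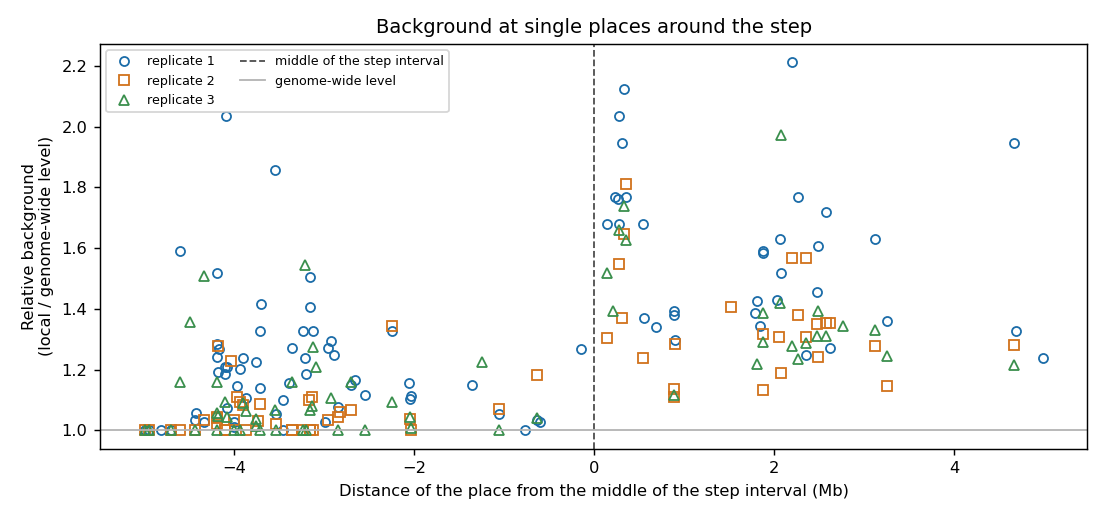
Relative background (local background over the genome-wide level, no unit) at single places within 5 Mb of the located step, against the distance from the middle of the step interval in Mb, with 1 symbol per replicate in which a place had a peak. Left of the dashed line many places lie on the grey line of the genome-wide level, and right of it none do.

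Because the step preceded 100 Mb, a few peaks of the lower side had upper-side background. Between the step and 100 Mb there were 14, 10 and 6 peaks, with medians of 1.68, 1.34 and 1.57 and none at the genome-wide level. The places nearest to 100 Mb were of this kind. On the lower side, the place from 99757120 to 99757428 was found in replicate 2 alone, 243 kb before 100 Mb, with a relative background of 1.41, and the one from 99142813 to 99143305 was found in replicates 1 and 2 with 1.30 and 1.28. On the upper side, the place from 100024941 to 100025215 was found in replicate 1 alone, 25.1 kb past 100 Mb, with 1.39, and the one from 100045812 to 100046370 was found in replicates 1 and 3 with 1.43 and 1.22. The members just inside and just outside the split thus had overlapping backgrounds.

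Along each side the background varied, but within ranges that did not overlap between the sides. In parts of 10 Mb, the 10 lower parts had median relative backgrounds from 1.14 to 1.24 in replicate 1, from 1.02 to 1.09 in replicate 2 and from 1.01 to 1.11 in replicate 3. The 14 upper parts that held peaks ranged from 1.33 to 1.54, from 1.26 to 1.35 and from 1.23 to 1.37. The lowest upper part exceeded the highest lower part in each list. Within each side, parts with more peaks tended to have a higher median background. Spearman's rho between both was 0.964, 0.491 and 0.733 in replicates 1, 2 and 3 over the lower parts. Over the upper parts it was 0.578, 0.407 and 0.657. The reason for this was not tested. The gap did not bring a second step: before it, from 100 Mb on, the medians were 1.49, 1.34 and 1.35, and past it they were 1.47, 1.32 and 1.34, a ratio past to before of 0.985, 0.989 and 0.994 (mean 0.989 ± 0.00455, SD, n = 3). By these medians, the raised background covered the end of the short arm next to the gap and each part of the long arm with peaks. It was not raised at every place. From 140 to 150 Mb, 6.25%, 16.7% and 15.4% of the peaks of replicates 1, 2 and 3 were at the genome-wide level.

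High parts were not particular to chromosome 1. Of 278 parts of 10 Mb on the other chromosomes, 34 reached the lowest upper part of chromosome 1 in all 3 lists, among them 10 of 16 on chromosome 7, 7 of 7 on chromosome 20, 6 of 15 on chromosome 8 and 5 of 9 on chromosome 17. Cut in the same way, 8 of 22 other chromosomes gave positions that agreed within 1 Mb between lists, and in 6 of these at least 20 peaks lay on each side of the cut. In 7 of the 22 the cut accounted for a larger share of the squared deviations than on chromosome 1, taking the lowest of the 3 lists, and in 6 of these 7 at least 20 peaks lay on each side. What makes the control signal of a region higher, copy number included, was not tested.

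Peaks were denser on the lower side. The lower side held 15.0, 10.4 and 10.8 peaks per Mb in replicates 1, 2 and 3, and the upper side 11.1, 7.83 and 7.97. The ratio of upper to lower was 0.743, 0.750 and 0.739, averaging 0.744 ± 0.00576 (SD, n = 3), below 1 in 3 of 3 replicates and by far more than their spread. That spread is between libraries and does not cover how density varies along the chromosome. An exact two-sided permutation test that flips the signs of 3 replicates cannot give a p below 0.25, so no p is given for this or the following contrasts. The size of the ratio depended on where and how it was taken: it was 0.634 with the gap counted as length, 0.819 with the split at 110 Mb, and 0.844 for the median number of peaks in parts of 1 Mb.

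The density difference lay in the first part of the chromosome and not at the step. From the first peak to 50 Mb there were 22.2, 15.9 and 16.4 peaks per Mb, and from 50 Mb to the step 7.76, 4.97 and 5.22, a ratio of 3.07 ± 0.184 (SD, n = 3). The boundary at 50 Mb was not planned, and the size of this ratio depends on it. Over the same boundary the ratio of median background was 1.05 ± 0.0115 and that of median fold enrichment 0.994 ± 0.0248. From 100 Mb to the gap the density was 10.1, 6.58 and 6.90 peaks per Mb, from the gap to 200 Mb 10.5, 7.50 and 7.54, and from 200 Mb to the last peak 12.3, 8.76 and 8.92. Each of these stretches past 100 Mb was denser, in each list, than the one from 50 Mb to the step, so the higher mean of the lower side rested on its first 50 Mb. The numbers of peaks in 10 Mb parts overlapped between sides, with 36 to 276 on the lower side and 11 to 232 on the upper side in replicate 1, 25 to 215 and 8 to 183 in replicate 2, and 28 to 210 and 6 to 190 in replicate 3.

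**Figure D3:**
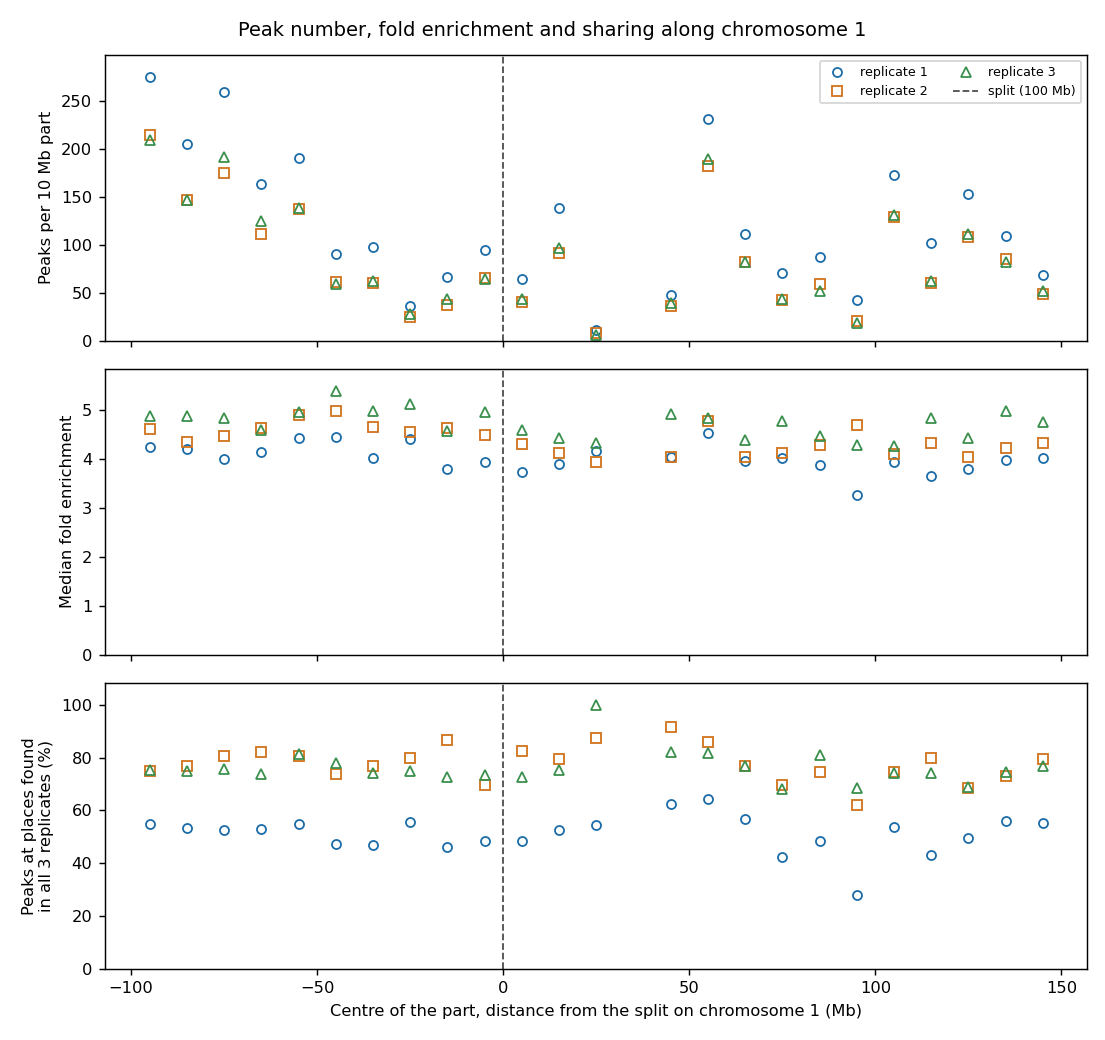
Peaks per 10 Mb part (top), median fold enrichment over local background (middle, no unit) and percent of a replicate's peaks at places found in all 3 replicates (bottom), against the distance of the centre of the part from 100 Mb in Mb, with 1 symbol per replicate. The highest peak number of each replicate lies in the first 50 Mb, and in none of the panels do the parts of both sides separate at the dashed split as the background does; the part from 120 to 130 Mb holds only 11, 8 and 6 peaks.

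Places supported by at least 2 replicates are the consensus in the study's methods. Taken over each whole side, they were spaced more widely on the upper side. The consensus held 1058 places below 100 Mb (10.7 per Mb) and 983 at or above it (7.74 per Mb), a ratio of numbers of 0.929 with a 95% Wilson interval of 0.852 to 1.01 that covers counting error only. Neighbouring consensus places lay a median of 32.5 kb apart on the lower side and 44.7 kb on the upper side. Neighbours within 10 kb made up 25.2% and 21.2% of the distances, and distances over 500 kb numbered 36 (3.41%) and 61 (6.22%). As for peaks, this difference rested on the first 50 Mb, which held 16.4 consensus places per Mb. From 50 Mb to the step there were 4.93 per Mb. That was fewer than the 6.67 from 100 Mb to the gap, the 7.39 from the gap to 200 Mb and the 8.60 beyond. The densest 1 Mb parts were 27 to 28 Mb with 48 consensus places, 1 to 2 Mb with 45, 6 to 7 Mb with 42 and 16 to 17 Mb with 41, all on the lower side. On the upper side the densest was 156 to 157 Mb with 35. The median 1 Mb part held 7 consensus places on the lower side and 5 on the upper side. Consensus places had a median width of 673.5 bp on the lower side and 696 bp on the upper side, and 19 and 29 of them were at least 2000 bp wide.

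More MYC fragments lay at the summits of the upper side. On the lower side the median number of fragments at a summit was 44, 33 and 30 in replicates 1, 2 and 3, and on the upper side it was 49.5, 37 and 33. Divided by the genome-wide level of each list, the medians were 5.65, 5.65 and 6.31 on the lower side and 6.36, 6.34 and 6.94 on the upper side. The ratio was 1.12, 1.12 and 1.10 (mean 1.12 ± 0.0135, SD, n = 3), above 1 in 3 of 3 replicates. At places found in all 3 replicates the medians were 8.35, 6.51 and 7.36 on the lower side and 9.12, 7.19 and 7.99 on the upper side. A summit must hold more fragments to be called over a higher background, so summit fragments and background are not independent measures here.

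Fold enrichment, which the peak caller gives over the local background, went the other way. The lower-side medians were 4.16 in replicate 1, 4.57 in replicate 2 and 4.86 in replicate 3, and the upper-side medians 3.94, 4.23 and 4.59. The ratio was 0.947, 0.926 and 0.945 (mean 0.939 ± 0.0116, SD, n = 3), below 1 in 3 of 3 replicates. Fold enrichment has the background as its denominator, and the split was chosen on that background, so this ratio is given as a description. The median of summit fragments was higher past the split by a smaller factor, 1.12, than the median of the background, 1.23. At 10 Mb resolution the medians of fold enrichment overlapped between sides in each list, from 3.79 to 4.44 against 3.25 to 4.52 in replicate 1, from 4.34 to 4.96 against 3.94 to 4.77 in replicate 2, and from 4.55 to 5.38 against 4.26 to 4.97 in replicate 3. Median peak width was 498, 439 and 440 bp on the lower side and 490, 450 and 460.5 bp on the upper side, a ratio of 1.02 ± 0.0318 (SD, n = 3) that was above 1 in 2 of 3 replicates.

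**Figure D4:**
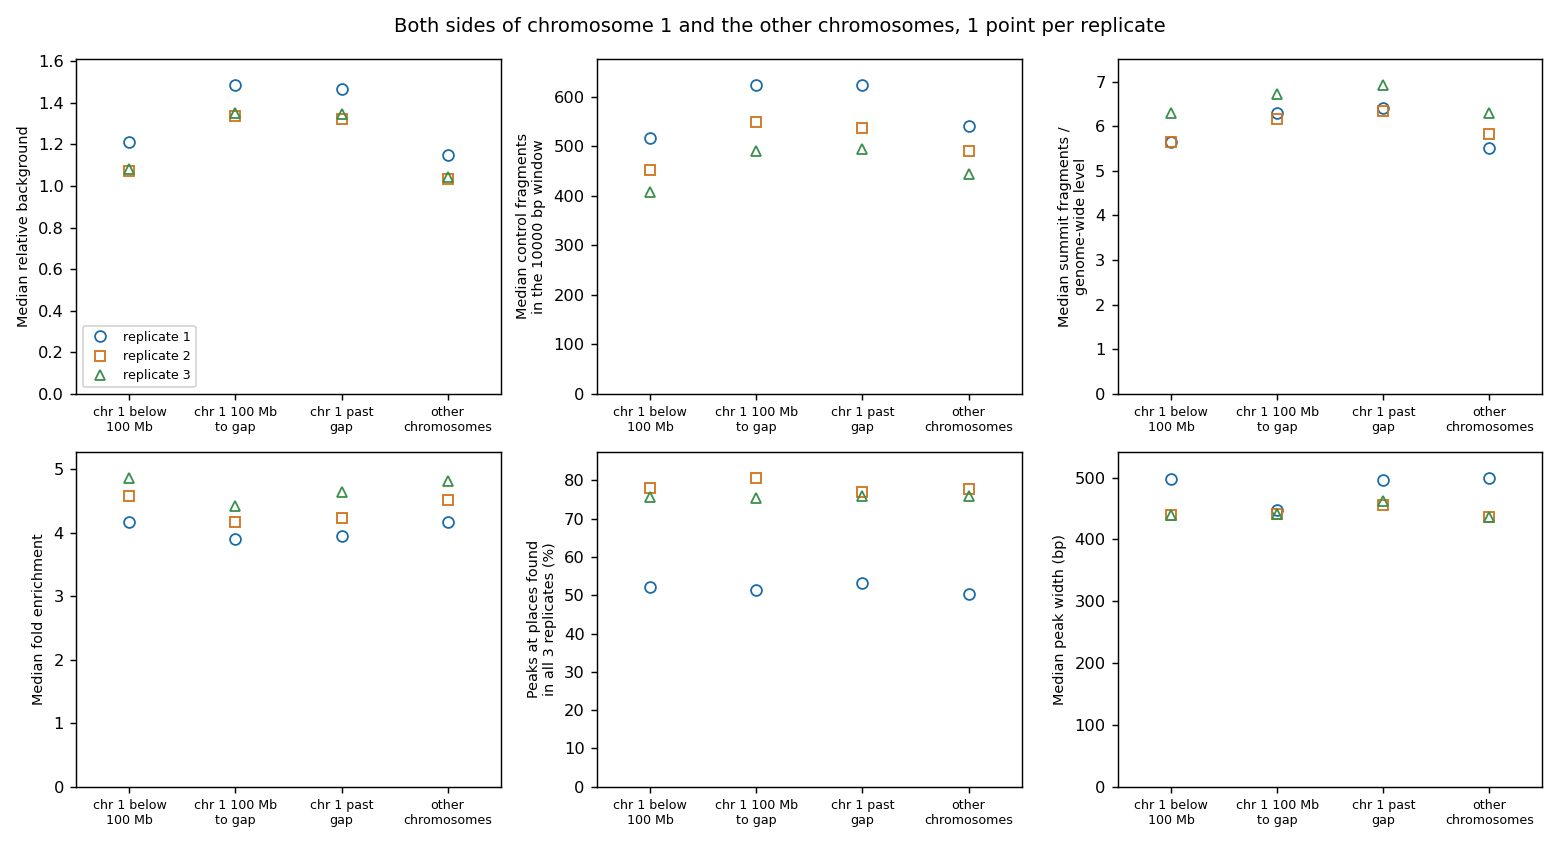
Medians over peaks of relative background, control fragments in the 10000 bp window, summit fragments over the genome-wide level, fold enrichment and peak width in bp, and the percent of peaks at places found in all 3 replicates, for chromosome 1 below 100 Mb, from 100 Mb to the gap, past the gap, and the other chromosomes. Each symbol is 1 replicate and each vertical axis starts at 0; the stretches on both sides of the gap lie together above the lower side for background, and near it for the percent found in all 3 replicates.

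The strongest places by fold enrichment were spread evenly over both sides. Of the 20 places of chromosome 1 with the highest fold enrichment among those found in all 3 replicates, 10 lay on each side, and of the highest 100, 47 lay below 100 Mb and 53 above. Of all 1505 such places, 769 were on the lower side.

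The highest place on the lower side, from 46015779 to 46016901, had fold enrichments of 38.5, 26.6 and 31.4 (mean 32.2 ± 5.97, SD, n = 3) over relative backgrounds of 1.10, 1.00 and 1.06. Its summits held 367, 181 and 189 fragments and lay within 1 bp of each other in the 3 lists. The place from 52520668 to 52522563 had 28.9, 24.4 and 28.5, and the one from 28969376 to 28970449 had 34.5, 22.4 and 25.4. At these 3 places replicate 1 gave the highest fold enrichment and replicate 2 the lowest. The fourth, from 8937817 to 8939798, had 24.8, 22.5 and 20.9, and its summits were up to 1140 bp apart, so the lists did not mark the same point in it.

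The highest place on the upper side, from 203829218 to 203831286, had fold enrichments of 32.3, 23.2 and 25.1 (mean 26.8 ± 4.81, SD, n = 3) over relative backgrounds of 1.43, 1.56 and 1.52. Its summits held 391, 233 and 205 fragments, more in each list than those of the highest lower-side place, while the fold enrichment was lower in each list. The place from 110162031 to 110163075 had 28.0, 25.0 and 26.7 over 1.76, 1.52 and 1.49, and held 412, 246 and 215 fragments. The place from 115259160 to 115259725 had 26.9, 26.2 and 25.8 over 1.58, 1.33 and 1.33. The fourth, from 222638570 to 222639413, had 25.2, 25.1 and 23.8 over a background that was low for its side, at 1.32, 1.11 and 1.08. Replicates differed little at the last 3 of these places, with SDs of 1.51, 0.583 and 0.761.

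The highest single backgrounds did not respect the step. On the lower side a pair of close places stood out, from 16939392 to 16940655 with relative backgrounds of 4.78, 5.58 and 4.17, and from 16947445 to 16947846 with 4.73, 4.27 and 3.91. Their fold enrichments were 5.32, 3.99 and 5.66 and 3.17, 2.78 and 3.47. On the upper side the highest were at the place from 144009736 to 144010477, with 4.24, 3.72 and 4.15 and fold enrichments of 10.6, 9.55 and 7.80, and at the one from 149223335 to 149224212, with 4.33, 3.51 and 4.17 and fold enrichments of 1.96, 2.37 and 2.21. All 4 had more than 3 times the genome-wide level in each list. The widest places were 2633 bp on the lower side, from 67894406 to 67897038, with fold enrichments of 17.0, 19.1 and 21.9, and 2754 bp on the upper side, from 155097788 to 155100541, with 10.0, 9.32 and 9.25.

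Sharing between replicates, with places matched by 1 bp of overlap, was close on both sides. Over the whole genome 45% of places had a peak in all 3 replicates and 62.4% in at least 2. On the lower side 769 of 1676 places were found in all 3 (45.9%, 95% Wilson interval 43.5 to 48.3) and on the upper side 736 of 1620 (45.4%, 43.0 to 47.9). At least 2 replicates had 63.1% (60.8 to 65.4) and 60.7% (58.3 to 63.0) of them. These shares were near the genome-wide ones on both sides. The intervals cover counting error only and treat places as independent, which they are not. Variation between libraries is not in them. Single replicates accounted for 618 and 637 places, of which 440 and 434 were in replicate 1 alone, 76 and 99 in replicate 2 alone, and 102 and 104 in replicate 3 alone. The deepest library thus gave most of the unshared places on either side.

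Counted over peaks, 52.3% of replicate 1, 77.9% of replicate 2 and 75.7% of replicate 3 on the lower side lay at places found in all 3, against 53.0%, 77.6% and 75.8% on the upper side. The difference, upper minus lower, was 0.683, −0.308 and 0.0896 percentage points (mean 0.155 ± 0.499, SD, n = 3), smaller than its spread. Its sign also changed with how shared peaks were matched, and with summits at most 200 bp apart it was −2.80 ± 0.782 percentage points (SD, n = 3), larger than its spread. Sharing went with the strength of the peak alike on both sides. All peaks with a −log10 p-value of at least 50 were shared, while of those below 10 it was 11.3%, 48.9% and 46.8% on the lower side and 13.6%, 48.2% and 45.3% on the upper side.

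The fold enrichments of shared places ranked alike between libraries on both sides. On the lower side Spearman's rho, taken on log2 fold enrichment, was 0.814 for replicates 1 and 2 (900 places), 0.819 for replicates 1 and 3 (906) and 0.828 for replicates 2 and 3 (790). On the upper side it was 0.830 (842 places), 0.808 (859) and 0.840 (754). The difference, upper minus lower, averaged 0.00554 ± 0.0141 (SD over 3 pairs), smaller than its spread. Places are not independent replicates and the pairs share libraries, so these are descriptions.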

How the data were processed

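ChIP-seq of MYC and of Normal IgG was carried out in ONS76 cells by the authors, with 3 libraries each. Groups were taken from the labels, and 1 deposited peak list per MYC library was used. Per the study's methods, immunoprecipitations from 1 batch of chromatin were combined, the authors mapped reads to hg19 using Bowtie2 and called peaks per library in MACS2 under a q-value of 0.05. Not given in the sources used here were the control passed to MACS2, duplicate handling and program versions. The deposited lists give for each peak the fold enrichment at the summit, which is a ratio over local background with 1 added to both terms, and −log10 p-values and q-values from the authors' caller. The deposited score, a whole number, was not used in any result.

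From the fold enrichment and −log10 p-value of a peak, both deposited, its summit fragments and local background were solved for. A whole number of fragments matching within 0.001 was found for 100% of peaks, against 0.753%, 0.670% and 0.629% by chance. The background in MACS2 is the maximum of a genome-wide level, which was the lowest value of a list, and of control levels over 1000 bp, 10000 bp and 1 fragment length. Background was divided by that level. Python 3.11.15 with numpy 2.4.6, pandas 2.3.3, scipy 1.17.1 and matplotlib 3.10.9 was used, and scripts were tested on simulated data. Densities are peaks per Mb between the outermost peaks of a side without the gap. Values are means ± SD over replicates.

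The members, the 100 Mb split and the named places were chosen with earlier results of these data known. Named on each side were the 4 places of highest fold enrichment (geometric mean) among those in all 3 replicates, the 2 with the highest relative background (lowest of the 3 lists), the widest place, and the 2 nearest to 100 Mb. The places next to the located step and the 2 upper-side places at the genome-wide level in all lists were named after their values were seen. The other settings were splits at 90 Mb, at 110 Mb, at the middle of the gap and at the located step, q-values of 0.01 and 0.001, equal numbers of peaks, other overlap rules, summaries and lengths, and each replicate left out. Settings using the located step and only the 10000 bp window were chosen after seeing the data. The genome and annotation used here are of hg38. In all, 17 peaks lie past the end of its chromosome 1, so no gene name or sequence was assigned, and genes, promoters and motifs were not analysed.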

Additional observations from a re-analysis of the deposited data

How the results depend on the processing

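The background ratio was above 1 under all 14 alternatives run, with 1.205 for a split at the middle of the gap, 1.202 for peaks above the genome-wide level only, 1.205 for means in place of medians and 1.205 for the 10000 bp window only. The split was chosen on this background and each alternative uses peaks of the same lists, so this count is no separate support. The density ratio was below 1 under all 12, with 0.816 for the gap-middle split, 0.707 and 0.819 for splits at 90 and 110 Mb, 0.634 with the gap as length, 0.844 for parts of 1 Mb, 0.735 at the located step, and 0.737 to 0.747 when each replicate was left out. The fold enrichment ratio was below 1 under all 12, with 0.951 for the gap-middle split, 0.927 for equal numbers of peaks and 0.919 with nothing added. Fold enrichment has that background as its denominator, so the same limit applies. The summit fragment ratio was above 1 under all 10, with 1.101 for the 90 Mb split. The sharing difference kept its sign under 7 of 14, with −0.473 percentage points for the 90 Mb split, 0.909 for a q-value of 0.001, −0.714 for equal numbers, 0.734 for reciprocal overlap, −2.796 ± 0.782 (SD) for summits within 200 bp, and −1.580 to −0.169 when each replicate was left out. With a replicate left out, a shared peak was one found in both remaining lists. The difference in rho was −0.011 to 0.017 when each replicate was left out, and negative only without replicate 2. Each of these values rests on the 1 pair of libraries left. It repeats that pair with places merged anew and is not a separate check. The ratio of consensus places was 0.701 for the gap-middle split and 1.053 for the 90 Mb split. It is a ratio of numbers without correction for length, so moving the split moves places from 1 side to the other. The cause of the shifts in the other results was not tested. No paired analysis was possible because IgG was not analysed, although the replicate numbers are shared between MYC and IgG. The contrasts between sides were each taken within a library. With 3 libraries, differences near their spread, such as those in width and in sharing by 1 bp of overlap, could not be resolved, and backgrounds below the genome-wide level cannot be seen in these lists.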
